A study of Homo sapiens with 9 samples.

Results

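Cadherins and protocadherins were described here in SH-Sy5y cells that received a mimic of the microRNA miR-1229-3p. SH-Sy5y is an established human neuroblastoma cell line. The members are the genes whose symbol is CDH followed by a digit, or starts with PCDH, and 78 of the 14943 genes in the count table met that rule. They comprise 11 coding CDH genes, 11 solitary protocadherins, 14 PCDHA, 16 PCDHB and 21 PCDHG isoform genes, and 5 pseudogenes. All 78 passed the filter on low values that the authors applied before depositing the table. The annotation holds 89 protein-coding genes with such symbols, of which 73 are in the table, and the other 16 (among them CDH5, CDH6, CDH13, PCDH8 and PCDH19) were not analysed here.

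Cells were transfected and lysed about 48 h later, and their polyadenylated RNA was sequenced. Control cells (Ctrl.) received 40 pmol of a negative control oligonucleotide and no mimic. The 10 nM cells received 20 pmol of mimic with 20 pmol of that oligonucleotide, and the 20 nM cells 40 pmol of mimic without it, so that mimic and loss of control oligonucleotide cannot be told apart. Each group had 3 libraries, whose RNA could come from pooled wells of a plate. Nothing in the labels says that the 3 came from separate cultures, and p-values measure only the spread between these samples.

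Cadherins are transmembrane adhesion proteins that bind the same or a related cadherin on a neighbouring cell through calcium-dependent repeats. Classical cadherins attach inside the cell to p120-catenin and beta-catenin, which link them through alpha-catenin to actin. Clustered protocadherins give neurons a surface identity: each PCDHA or PCDHG transcript joins a large variable exon, read from its own promoter, to constant exons that all isoforms of the cluster share, whereas PCDHB genes consist of a single exon. The C-type isoforms (PCDHAC1, PCDHAC2, PCDHGC3, PCDHGC4 and PCDHGC5) lie closest to the constant exons and are known to be expressed broadly, while the other variable exons are known to be chosen in part at random.

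The sequences that bear on these measurements are the joint between variable and constant exon, where isoforms can be told apart, and the seed matches of the microRNA. Each line below gives the last 15 bases of a variable exon in lower case and the first 15 bases of the shared exon in capitals, read from GRCh38 with GENCODE 44 for isoforms that passed the test in at least 1 comparison.
PCDHAC2: gtttctcaaaatgagCCACGACAGCCCAAC
PCDHAC1: aatgtcaatgccatgCCACGACAGCCCAAC
PCDHA8: gatcatggcctcaaaCCACGACAGCCCAAC
PCDHA11: aatcaccccggacagCCACGACAGCCCAAC
PCDHGC3: gcccctcccggacagCAAGCCCCGCCCAAC
PCDHGB7: aagattcttaaacagCAAGCCCCGCCCAAC
All 14 PCDHA isoforms shared exons of 59, 89 and 2721 bases between 140978949 and 141012347 on the plus strand of chromosome 5, and all 21 PCDHG isoforms shared exons of 59, 89 and 2029 bases between 141494807 and 141512975. The variable exon of PCDHAC2 lies at chr5:140966476-140969331 and that of PCDHGC3 at chr5:141475966-141478546. The shared part made up 50.1% of the annotated PCDHAC2 transcript and 45.8% of that of PCDHGC3. Of the 31-base words of the PCDHA8 transcripts, 27.4% occurred in no other gene, against 50.1% for PCDHAC2, 54.5% for PCDHGC3, 60.6% for the single-exon PCDHB9 and 99.9% for CDH2. The shared exons made up 53.1% of PCDHA8 and 53.4% of PCDHA9, of which 25.4% of the words were its own. Words of their variable exons thus also occur in other genes. Counts of single PCDHA and PCDHG isoforms are therefore estimates in which reads of shared sequence were divided among isoforms, and each cluster was also summed.

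Mature miR-1229-3p is given below with its seed, bases 2 to 8, in capitals (RefSeq, GRCh38.p14). Beside it stand the 2 matches in the 3′ untranslated region (UTR) of CDH11 and the 8-base match of PCDH9, each in a window of 30 bases with the matching bases in capitals. They are shown because CDH11 was a member with matches that passed the test, and PCDH9 held an 8-base match. The PCDH9 match lies in the UTR of an alternative transcript.
hsa-miR-1229-3p: cUCUCACCacugcccucccacag
CDH11, first match: agaagatgtccGTGAGAAcatcattactta
CDH11, second match: aggaaggagatGGTGAGAtatagagtgtga
PCDH9: taaaatgtctaGGTGAGAAttttacagttg
On the minus strand these windows lie at chr16:64948006-64948035, chr16:64944788-64944817 and chr13:67205776-67205805.

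Library totals were between 17423969 and 28192775 estimated counts. Levels are given in CPM, the count of a gene relative to the library total after TMM scaling, which evens out differences in composition. The library 20 nM replicate 3 stood apart, at 47.4 on the first principal component against -17.1 to 7.72 for the other 8, and the surrogate variable in the fit had a loading of 0.907 on it. For part of the genes named below, results of the 20 nM cells are therefore also given without it. All 11 listed markers of noradrenergic neuroblastoma were in the table, with a summed level of 6170 to 6410 CPM in Ctrl. and 6240 to 6970 CPM at 20 nM, although tyrosine hydroxylase (TH) stood at 0.122 to 0.914 CPM. Of the mesenchymal markers, 5 of 6 were in the table, at 183 to 240 CPM in Ctrl. and 169 to 218 CPM at 20 nM. Epithelial (2 of 5 listed), Schwann or glial (2 of 5), endothelial (1 of 5) and haematopoietic markers (2 of 3) each summed to at most 6.76 CPM in any library. Defining markers such as KRT19, SOX10, PECAM1 and PTPRC had no entry. Fewer cells of a type and less RNA per cell cannot be told apart in such bulk samples.

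In control cells the repertoire was led by CDH2 and PCDHGC3. Per kilobase of annotated transcript, CDH2 (N-cadherin, the main classical cadherin of neurons) stood at 53.2 ± 3.12 CPM per kb (mean ± SD, n = 3), PCDHGC3 at 43.0 ± 1.53 and CDH24, a type II cadherin, at 20.9 ± 1.78. PCDHGA7 (12.1 ± 0.478), PCDHGB7 (11.2 ± 1.04), PCDHB3 (10.3 ± 0.477) and PCDHGC4 (10.2 ± 0.636) followed, and these neighbours differed by about their spread. CDH11 was at 9.12 ± 0.11, PCDHB9 at 8.92 ± 0.293, PCDHB14 at 8.72 ± 0.363 and PCDHAC2 at 8.45 ± 0.287 CPM per kb. Of the 78 members, 33 had a mean below 2 CPM over all libraries, among them E-cadherin (CDH1) and 10 of the 21 PCDHG isoforms. At 20 nM, PCDHAC2 had a level of 12.9 ± 0.594 CPM per kb, above PCDHGA7 at 11.2 ± 0.197 and PCDHGB7 at 8.53 ± 1.45.

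The first comparison asked which members changed at the lower concentration. At 10 nM, 1 of the 78 members passed the test (edgeR quasi-likelihood test, adjusted p under 0.05 by Benjamini and Hochberg, in a fit that held 1 surrogate variable for unwanted variation), against 0.649% of all 14943 genes. It was PCDHAC2, a C-type isoform that is known from mice to be needed for the spacing of serotonergic axons. PCDHAC2 stood at 50.3, 47.6 and 47.3 CPM in Ctrl., at 66.8, 62.4 and 62.8 CPM at 10 nM, and at 77.8, 71.8 and 72.0 CPM at 20 nM. The 3 groups did not overlap, and every 20 nM library lay above every 10 nM library. Its log2 fold change was 0.41 ± 0.0503 (standard error, SE) at 10 nM (adjusted p = 0.003) and 0.64 ± 0.0557 at 20 nM (adjusted p = 2.28e-05), and 0.62 ± 0.0549 at 20 nM without 20 nM replicate 3. Between 20 nM and 10 nM it was 0.23 ± 0.0527 (adjusted p = 0.0356), and 0.21 without that library (adjusted p = 0.0618). When a block for the replicate number replaced the surrogate variable, its adjusted p was 0.0647 at 10 nM and 0.131 between 20 nM and 10 nM. The call at 10 nM was also lost without the surrogate variable (adjusted p = 0.131), where PCDHAC2 had a log2 fold change of 0.40, against 0.38 to 0.45 over all alternative fits.

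At 20 nM, 13 members passed, or 16.7% of 78 against 13.9% of all genes. Of them 8 were higher (background 7.8%) and 5 lower (background 6.08%). Without 20 nM replicate 3 all 13 passed again, with 17 in all. The dose trend fits the concentration as a number and gives the change between 0 and 20 nM. In the dose trend 17 members passed, or 21.8% of 78 against 17.6% of all genes. Of these 17, 8 were higher (10.3% of 78, background 9.92%) and 9 lower (11.5% of 78, background 7.64%). Between 20 nM and 10 nM 2 passed, PCDHAC2 and CDH4 (background 2.79%), calls that were lost in 9 of 18 and 8 of 19 alternative fits. The median log2 change of the 78 members in the dose trend was -0.13, that of all genes -0.00, with 53 members below 0. All 20 nM libraries lay above all controls for 12 members (background 15.2%) and below them for 20 members (background 13.7%).

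**Figure D1:**
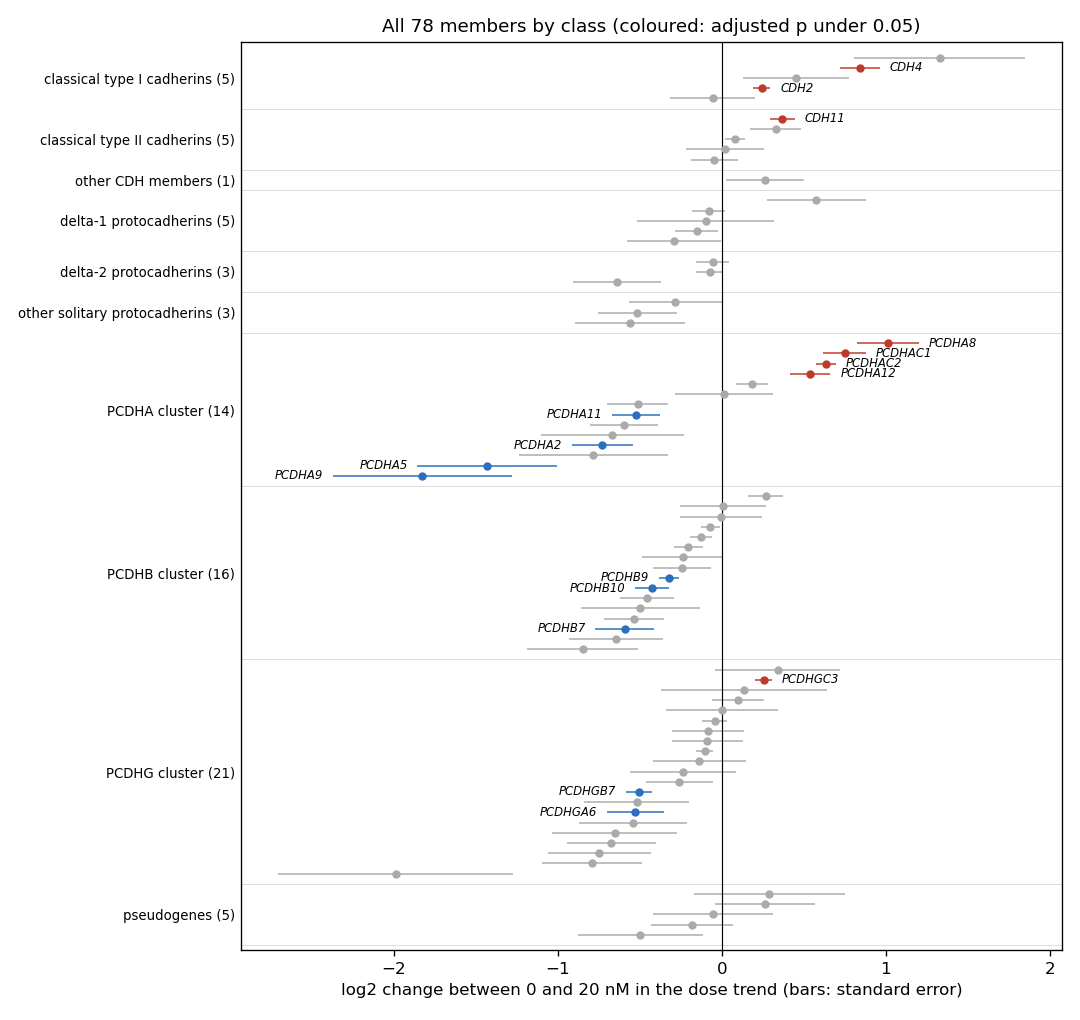
Log2 change of each of the 78 members between 0 and 20 nM in the dose trend, with standard errors, in rows by class; red and blue points passed the test (adjusted p under 0.05) and are named, and grey points did not. The 8 higher members include 3 classical cadherins, 4 PCDHA isoforms and PCDHGC3, and the 9 lower ones all belong to the 3 protocadherin clusters.

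Among the CDH genes, 3 of 11 rose in the dose trend (background 9.92%) and 0 fell (background 7.64%). All 3 are classical cadherins of mesenchymal or neural cells. The highest fold of the 3 was that of CDH4 (R-cadherin, chr20:61252261-61940617, plus strand), known from the retina and brain. CDH4 was at 11.1, 11.5 and 13.4 CPM in Ctrl., at 16.0, 11.7 and 16.7 CPM at 10 nM, and at 20.8, 20.9 and 33.0 CPM at 20 nM. The 20 nM libraries lay above the other 6, and 10 nM replicate 2 lay within the controls. The log2 fold change of CDH4 at 20 nM was 0.76 ± 0.131 (edgeR adjusted p = 0.0024), or 0.80 ± 0.108 without 20 nM replicate 3, where CDH4 was highest, and it was 0.52 ± 0.124 between 20 nM and 10 nM (adjusted p = 0.044).

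CDH2 was at 204, 210 and 228 CPM in Ctrl., at 226, 228 and 232 CPM at 10 nM and at 265, 246 and 241 CPM at 20 nM. Its 20 nM libraries lay above all others, by a small margin. The log2 fold change of CDH2 was 0.26 ± 0.0563 at 20 nM (edgeR adjusted p = 0.00981), a call lost without the surrogate variable (adjusted p = 0.0604) or without 20 nM replicate 1 (adjusted p = 0.112). CDH11 (OB-cadherin, named for osteoblasts) was at 62.0, 61.3 and 60.6 CPM in Ctrl., at 72.2, 73.8 and 55.2 CPM at 10 nM, and at 84.8, 74.7 and 62.6 CPM at 20 nM. Replicate 3 was the lowest in every group, and 20 nM replicate 3 lay just above the controls. The log2 fold change of CDH11 was 0.43 ± 0.0857 at 20 nM (adjusted p = 0.00581). It was 0.38 ± 0.0626 without 20 nM replicate 3, 0.27 without the surrogate variable (adjusted p = 0.192), and its call was lost without 20 nM replicate 1 (adjusted p = 0.0783). With the replicate block CDH11 passed neither at 20 nM (0.26, adjusted p = 0.0785) nor in the dose trend (adjusted p = 0.0523).

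The other 8 CDH genes did not pass. CDH24 stood at 77.1, 72.2 and 65.0 CPM in Ctrl. and at 74.5, 74.6 and 80.5 CPM at 20 nM, with overlapping groups. E-cadherin (CDH1), the epithelial cadherin, was at 0.149 to 0.595 CPM in Ctrl. and 0.544 to 1.16 CPM at 20 nM, with a log2 change of 1.33 ± 0.519 in the dose trend (edgeR adjusted p = 0.0952). CDH3 (P-cadherin), CDH7, CDH8, CDH15, CDH20 and CDH23, the cadherin of hair cell tip links, had group means between 0.727 and 5.37 CPM. Their log2 changes in the dose trend were between -0.06 (CDH3) and 0.45 (CDH15).

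Among the 11 solitary protocadherins, which are transcribed from single genes outside the clusters, 0 passed in any of the 4 comparisons (edgeR quasi-likelihood test). At an unadjusted p under 0.05 it was 2 at 20 nM and 1 in the dose trend, and DESeq2 called 0 as well, with an adjusted p missing for 6 of the 11 at 20 nM and for 1 in the dose trend. PCDH18 was at 32.7, 35.5 and 30.7 CPM in Ctrl., at 32.3, 35 and 26.5 CPM at 10 nM and at 31.8, 32.2 and 20.9 CPM at 20 nM. PCDH9 was at 21.8, 20.5 and 15.9 CPM in Ctrl., at 19.6, 16.4 and 13.8 CPM at 10 nM and at 21.0, 14.5 and 11.1 CPM at 20 nM. Both were lowest in replicate 3 of each group. PCDH17, which regulates presynaptic assembly, was at 14.1 to 15.7 CPM in Ctrl. and 13.4 to 15.2 CPM at 20 nM, and PCDH1 at 11.1 to 12.7 and 10.4 to 12.4 CPM. Groups overlapped for both. For PCDH10, PCDH12, PCDH15 and PCDH20 all 20 nM libraries lay below all controls (4 of 11 genes, background 13.7%), with log2 changes in the dose trend of -0.64, -0.28, -0.56 and -0.51, at group means of at most 2.81 CPM. Most 31-base words of PCDH20 also occur in transcripts of other genes, and 9.4% were its own. PCDH11X and PCDH11Y share reads with each other (29.2% and 27.9% of such words were their own). The counts of PCDH20, PCDH11X and PCDH11Y are therefore uncertain.

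The PCDHA cluster showed changes in both directions. Summed over its 15 rows (14 coding isoforms and 1 pseudogene), it stood at 114, 107 and 113 CPM in Ctrl., at 128, 129 and 130 CPM at 10 nM, and at 145, 140 and 147 CPM at 20 nM. The 3 groups did not overlap and stood in the order of the concentration. With the isoforms summed to 1 row, the log2 fold change was 0.21 ± 0.042 at 10 nM and 0.36 ± 0.0472 at 20 nM, a description of the locus for which no p is given. In the dose trend 4 of the 14 isoforms rose (PCDHAC2, PCDHAC1, PCDHA8 and PCDHA12) and 4 fell (PCDHA2, PCDHA5, PCDHA9 and PCDHA11), and the median log2 change of the 14 was -0.52. The sum was higher at 20 nM while the median isoform was lower, and PCDHAC2 alone held 43.5 ± 1.34% of the cluster in Ctrl. and 51.4 ± 2.21% at 20 nM.

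PCDHAC1, the other C-type alpha isoform, was at 7.21, 6.54 and 7.86 CPM in Ctrl., at 7.99, 8.73 and 11.1 CPM at 10 nM, and at 10.7, 14 and 14.5 CPM at 20 nM. Its 20 nM libraries lay above all controls but the lowest of them lay below 10 nM replicate 3. The log2 fold change of PCDHAC1 was 0.70 ± 0.147 at 20 nM (edgeR adjusted p = 0.00757), or 0.77 ± 0.119 without 20 nM replicate 3, and its call was lost without 20 nM replicate 2 (adjusted p = 0.0698). PCDHA8 was at 4.03, 5.14 and 6.37 CPM in Ctrl., at 6.21, 8.95 and 5.37 CPM at 10 nM, and at 10.5, 9.76 and 14.2 CPM at 20 nM. The 20 nM libraries of PCDHA8 lay above the other 6, with a log2 fold change of 0.94 ± 0.208 (adjusted p = 0.0101), or 0.96 ± 0.205 without 20 nM replicate 3. Only 27.4% of the 31-base words of PCDHA8 were its own, so its level depends on how reads were divided among isoforms. PCDHA12 was at 8.27, 8.27 and 8.45 CPM in Ctrl., at 10.6, 9.57 and 12.7 CPM at 10 nM, and at 13.1, 11 and 13.2 CPM at 20 nM. The libraries of both mimic groups lay above the controls, and the log2 fold change at 20 nM was 0.52 ± 0.13 (adjusted p = 0.0182), with an adjusted p of 0.129 without 20 nM replicate 1 and 0.0507 without Ctrl. replicate 3.

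Of the alpha isoforms that fell, PCDHA11 was at 6.96, 8.38 and 7.60 CPM in Ctrl., at 6.83, 7.83 and 7.26 CPM at 10 nM, and at 5.57, 4.95 and 4.66 CPM at 20 nM. At 10 nM, replicates 2 and 3 of PCDHA11 lay among the controls and replicate 1 just below them, and the 20 nM libraries lay below the other 6. Its log2 fold change at 20 nM was -0.53 ± 0.143 (edgeR adjusted p = 0.0269), and the call was lost without Ctrl. replicate 2, Ctrl. replicate 3 or 20 nM replicate 2 (adjusted p between 0.0683 and 0.119). PCDHA2 was at 6.29, 4 and 5.06 CPM in Ctrl., at 4.26, 4.11 and 4.11 CPM at 10 nM, and at 3.35, 2.71 and 3.53 CPM at 20 nM. The 20 nM libraries of PCDHA2 lay below the other 6. Its log2 fold change at 20 nM was -0.74 ± 0.215 (adjusted p = 0.0376), a call lost in 8 of 18 alternative fits. PCDHA5 and PCDHA9 passed only in the dose trend, at -1.43 ± 0.424 (adjusted p = 0.0322) and -1.83 ± 0.545 (adjusted p = 0.0329). With the replicate block PCDHA9 also passed at 20 nM (adjusted p = 0.0458). They rest on few reads: PCDHA5 had 14.1 to 43 estimated counts in the controls and 6.5 to 17 at 20 nM, and PCDHA9 had 15.6 to 23.8 and 4.1 to 5. Both calls were lost without Ctrl. replicate 1 (adjusted p = 0.106 and 0.0888) or 20 nM replicate 2 (adjusted p = 0.143 and 0.101), that of PCDHA5 also without Ctrl. replicate 3 (adjusted p = 0.132) and that of PCDHA9 without Ctrl. replicate 2 (adjusted p = 0.0604). Of the 31-base words of PCDHA9, 25.4% were its own, so its counts also depend on how reads were divided.

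The remaining 6 alpha isoforms did not pass in the dose trend. PCDHA4 was at 9.62 to 9.97 CPM in Ctrl. and 10.5 to 12.0 CPM at 20 nM, and PCDHA10 at 5.62 to 7.04 and 3.12 to 4.77 CPM, with adjusted p of 0.219 and 0.062. The 20 nM libraries of PCDHA10 lay below all others, and it passed at 20 nM without 20 nM replicate 3 (adjusted p = 0.0225) and with the replicate block (adjusted p = 0.0361). PCDHA3 had lower values in all libraries of both concentrations (5.95 to 7.32 CPM in Ctrl., 3.37 to 5.50 CPM at 10 nM, 3.36 to 4.98 CPM at 20 nM), with an adjusted p of 0.0756 in the dose trend. With the replicate block PCDHA3 passed at 20 nM (-0.63, adjusted p = 0.0348) and in the dose trend (adjusted p = 0.0383). PCDHA1, PCDHA6 and PCDHA7 had levels of at most 1.78 CPM in any library.

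**Figure D2:**
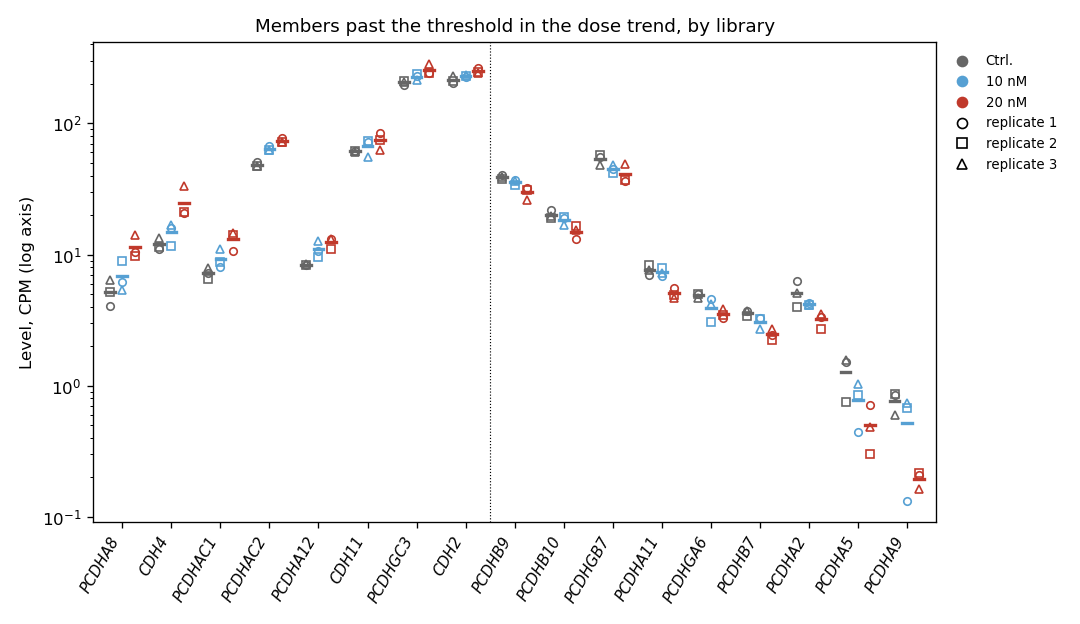
Level in CPM (log axis) in each of the 9 libraries for the 17 members that passed in the dose trend, ordered by their change, with bars at the group means, colours for groups and symbols for replicate numbers; rising members stand left of the dotted line. PCDHAC2 climbs from 47.3 to 50.3 CPM in Ctrl. to 71.8 to 77.8 CPM at 20 nM, while PCDHA5 and PCDHA9 fall at levels below 2 CPM.

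The sum of the PCDHB cluster was lower at 20 nM. Its 19 rows (16 coding genes and 3 pseudogenes) summed to 202, 198 and 193 CPM in Ctrl., to 193, 187 and 187 CPM at 10 nM, and to 173, 171 and 174 CPM at 20 nM. The 20 nM libraries lay below all others, and 10 nM replicate 1 reached the lowest control. With the genes summed to 1 row, the log2 fold change was -0.19 ± 0.0445 at 20 nM and -0.06 ± 0.0387 at 10 nM. In the dose trend 14 of the 16 coding genes had a log2 change below 0, with a median of -0.28 against -0.00 for all genes (15 of 16 and -0.30 when scaled by library totals alone), and 3 fell while 0 rose.

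PCDHB9 was at 40.4, 37.8 and 39.1 CPM in Ctrl., at 37.0, 33.6 and 36.3 CPM at 10 nM, and at 32.3, 31.2 and 26.1 CPM at 20 nM. The 3 groups of PCDHB9 did not overlap, with a log2 fold change of -0.28 ± 0.0657 at 20 nM (edgeR adjusted p = 0.0131), or -0.30 ± 0.0636 without 20 nM replicate 3, and its call was lost without 20 nM replicate 2 (adjusted p = 0.0527). PCDHB10 was at 21.7, 19.0 and 19.5 CPM in Ctrl., at 18.9, 19.3 and 16.7 CPM at 10 nM, and at 13.1, 16.4 and 15.4 CPM at 20 nM. Its 20 nM libraries lay below the other 6, at -0.45 ± 0.114 (adjusted p = 0.0209), a call lost without Ctrl. replicate 1 (adjusted p = 0.0633) or 20 nM replicate 1 (adjusted p = 0.167). Of the 31-base words of PCDHB9 and PCDHB10, 60.6% and 58.2% occurred in no other gene, against 74.6% for PCDHB3 and 78.9% for PCDHB14. Counts of PCDHB9 and PCDHB10 therefore also depend on how shared reads were divided. PCDHB7 was at 3.41 to 3.72 CPM in Ctrl., 2.69 to 3.28 CPM at 10 nM and 2.24 to 2.71 CPM at 20 nM, and passed only in the dose trend (-0.59 ± 0.18, adjusted p = 0.0367), a call lost in 7 of 17 alternative fits. PCDHB14 and PCDHB3, the other beta genes above 30 CPM, were at 36.9 to 40.1 and 33.1 to 36.3 CPM in Ctrl. and at 36.0 to 39.6 and 30.6 to 31.9 CPM at 20 nM, with adjusted p of 0.439 and 0.207 in the dose trend. PCDHB6, at 13.5 to 14.9 CPM in Ctrl. and 15.1 to 18.2 CPM at 20 nM, was the beta gene with higher values in every 20 nM library, with a log2 change of 0.27 ± 0.106 (adjusted p = 0.0992). The 5 pseudogenes of the rule had 0 calls (edgeR) and 0 unadjusted p under 0.05, and DESeq2 called 0 with the adjusted p missing for all 5 at 20 nM.

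**Figure D3:**
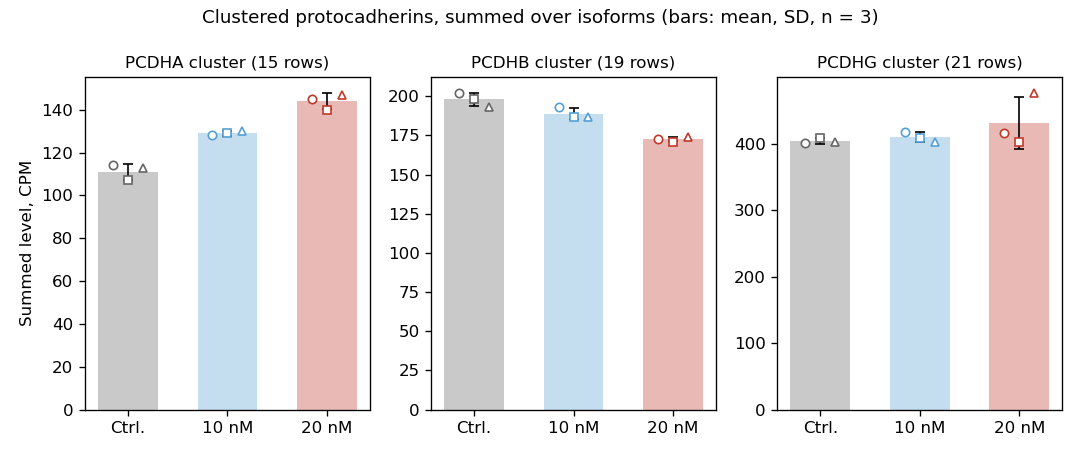
Summed CPM of the PCDHA, PCDHB and PCDHG clusters in each group, as bars for the mean with SD (n = 3) and a point for each library. The mean PCDHA sum is 111 CPM in Ctrl. and 144 CPM at 20 nM, the PCDHB sum 198 and 173 CPM, and the PCDHG sum has a single high library, 20 nM replicate 3 at 476 CPM.

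The summed PCDHG cluster was at 401, 409 and 402 CPM in Ctrl., at 418, 409 and 403 CPM at 10 nM, and at 416, 403 and 476 CPM at 20 nM. Groups overlapped, and the log2 fold change of the summed row was 0.01 ± 0.048 at 20 nM. The log2 ratio of mean sums was 0.09, or 0.02 without 20 nM replicate 3. Within the cluster 1 isoform rose and 2 fell in the dose trend. PCDHGC3, a C-type isoform known to bind Axin1 and to dampen Wnt signalling, was at 197, 210 and 207 CPM in Ctrl., at 228, 237 and 215 CPM at 10 nM, and at 240, 240 and 282 CPM at 20 nM. The 3 groups of PCDHGC3 did not overlap, with a log2 fold change of 0.22 ± 0.0556 at 20 nM (edgeR adjusted p = 0.0181), or 0.23 ± 0.0458 without 20 nM replicate 3. That call was lost without Ctrl. replicate 1, Ctrl. replicate 3, 20 nM replicate 1 or 20 nM replicate 2 (adjusted p between 0.0518 and 0.0694), while the one in the dose trend was not (largest adjusted p = 0.0238).

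PCDHGB7 was at 55.5, 57.1 and 47.9 CPM in Ctrl., at 44.8, 42.1 and 47.9 CPM at 10 nM, and at 36.5, 37.0 and 48.7 CPM at 20 nM. Replicates 1 and 2 of 20 nM lay below all others, and 20 nM replicate 3 lay among the controls. The log2 fold change of PCDHGB7 was -0.56 ± 0.0871 at 20 nM (edgeR adjusted p = 0.00123) and -0.54 ± 0.0805 without 20 nM replicate 3, and the call was lost without the surrogate variable (-0.39, adjusted p = 0.0669) and with the replicate block (-0.40, adjusted p = 0.0517). PCDHGA6 was at 4.69 to 5.03 CPM in Ctrl., 3.04 to 4.61 CPM at 10 nM and 3.26 to 3.85 CPM at 20 nM. It passed only in the dose trend (-0.53 ± 0.172, adjusted p = 0.0487), a call lost in 10 of 17 alternative fits, among them the replicate block (adjusted p = 0.0658). The other abundant gamma isoforms did not pass: PCDHGA7 was at 60.2, 56 and 56.5 CPM in Ctrl. and 54.3, 53.1 and 52.4 CPM at 20 nM, and PCDHGC4, needed for the survival of interneurons in mice, was at 49.0, 45.1 and 51.1 CPM in Ctrl. and 47.7, 43.4 and 60.4 CPM at 20 nM. Of the 21 gamma isoforms, 16 had a log2 change below 0 in the dose trend (17 with RLE scaling), with a median of -0.23.

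As a share of their cluster, C-type isoforms were higher at each concentration. PCDHAC1 and PCDHAC2 together held 50.5, 50.5 and 48.9% of the summed PCDHA level in Ctrl., 58.4, 55.0 and 56.7% at 10 nM, and 60.9, 61.5 and 59.0% at 20 nM. PCDHGC3, PCDHGC4 and PCDHGC5 together held 61.6, 62.9 and 64.6% of the summed PCDHG level in Ctrl., 67.5, 69.4 and 65.0% at 10 nM, while the 20 nM libraries stood at 69.7, 71.0 and 72.0%. The groups did not overlap in either cluster. Within the gamma trio the difference lay in PCDHGC3, with 50.7 ± 1.47% in Ctrl. and 58.9 ± 0.964% at 20 nM, whereas PCDHGC4 was at 12.0 ± 0.862 and 11.7 ± 0.96% and PCDHGC5 at 0.398 ± 0.0341 and 0.324 ± 0.183%. PCDHA8 also had a higher share, 4.66 ± 1.06 and 7.97 ± 1.5%, and so did PCDHA12, with 7.49 ± 0.228 and 8.63 ± 0.644%. Their libraries did not overlap between Ctrl. and 20 nM either, and neither is a C-type isoform. These shares were compared after the members' folds had been seen, carry no test, and depend on how reads of shared sequence were divided.

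**Figure D4:**
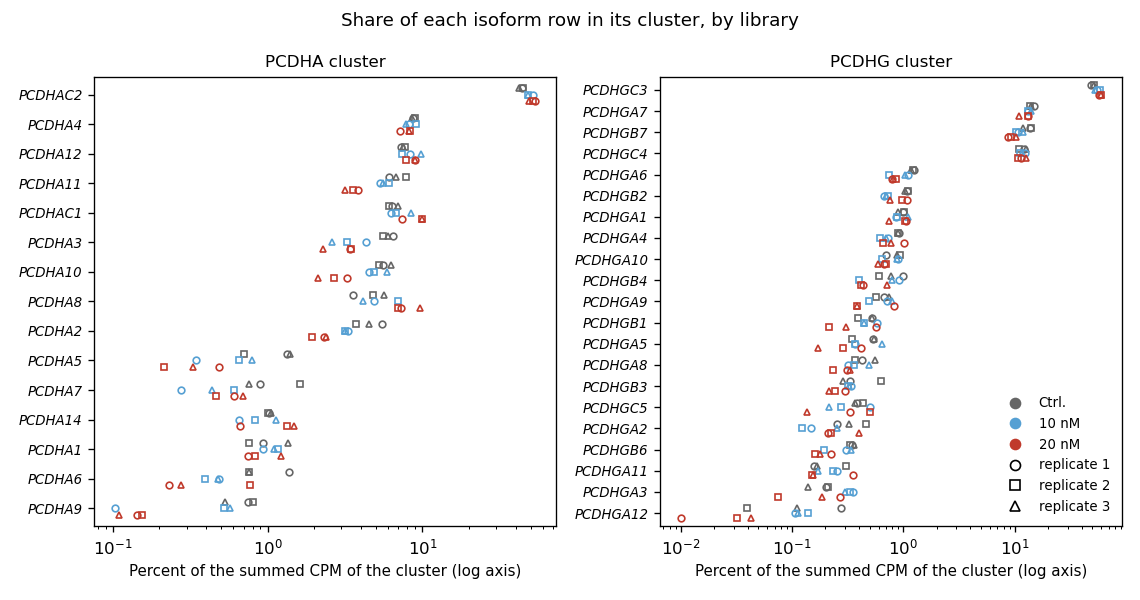
Share of each isoform in the summed CPM of its cluster, in percent (log axis), for the PCDHA (left) and PCDHG (right) clusters, with a point for each library, colours for groups and symbols for replicate numbers. PCDHAC2 holds 42.0 to 44.4% of the PCDHA sum in Ctrl. and 49.1 to 53.5% at 20 nM, PCDHGC3 49.0 to 51.6% and 57.8 to 59.7% of the PCDHG sum.

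Seed matches were searched in the longest annotated 3′ UTR of each gene, on the transcript strand only: GTGAGA is the 6-mer, GTGAGAA and GGTGAGA are the 7-mers that contain it, and GGTGAGAA is the 8-mer that contains both. Outside the PCDHA and PCDHG clusters, 9 of 38 members with a UTR (23.7%) held a 7-mer or 8-mer, against 3114 of 13778 genes (22.6%), and in any annotated UTR it was again 9. These were CDH7, CDH11, CDH20, PCDH1, PCDH7, PCDH9, PCDH15, PCDH17 and PCDH18. Of these 9, CDH11 with the matches printed above passed the test and was higher, and the other 8 did not pass. PCDH9 and PCDH15 hold an 8-mer, with log2 changes in the dose trend of -0.15 ± 0.132 (edgeR adjusted p = 0.472) and -0.56 ± 0.335 (adjusted p = 0.275). PCDH9 passed, and was lower, without 20 nM replicate 1 (-0.49, adjusted p = 0.0175) and with the replicate block (-0.35, adjusted p = 0.0404). The UTR searched for PCDH9 has 24327 bases, more than its main annotated transcript of 6227 bases. The PCDH9 matches therefore lie in the UTR of an alternative transcript. CDH20 had a log2 change of 0.33 ± 0.155 (adjusted p = 0.161), CDH7 of 0.02 ± 0.238 and PCDH7 of 0.58 ± 0.302 (adjusted p = 0.21). The changes of PCDH1, PCDH17 and PCDH18 were -0.08 ± 0.101, -0.06 ± 0.0992 and -0.07 ± 0.0799. The 2410-base UTR in the shared PCDHA exons holds a 6-mer only and the 1802-base UTR of the shared PCDHG exons none of the 4 motifs. The matches of PCDHA4, PCDHA9, PCDHA10 and PCDHGA2 lie in UTRs of alternative transcripts that end before the shared exons.

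Proteins that work with cadherins were counted from lists, each read against 9.92% higher and 7.64% lower among all genes in the dose trend. The medians of the 7 lists were between -0.06 and 0.01 on the log2 scale, against -0.00 for all genes. Of 9 catenins and plakophilins tested, 1 rose and 3 fell. CTNNB1 (beta-catenin, which binds classical cadherins and carries Wnt signals) was at 205, 228 and 201 CPM in Ctrl., at 227, 238 and 230 CPM at 10 nM, and at 323, 330 and 305 CPM at 20 nM. All 20 nM libraries lay above the other 6, and the log2 change was 0.61 ± 0.0735 in the dose trend (edgeR adjusted p = 0.000113). JUP (plakoglobin, the close relative of beta-catenin) was at 107, 111 and 104 CPM in Ctrl. and at 77.5, 84.8 and 91.8 CPM at 20 nM, with a change of -0.39 ± 0.0507 (adjusted p = 0.000193). CTNNA1 (alpha-catenin, the link to actin) was at 226, 236 and 226 CPM in Ctrl., at 179, 185 and 183 CPM at 10 nM and at 186, 198 and 184 CPM at 20 nM. It was lower at both concentrations, by much the same amount, with a log2 fold change of -0.33 ± 0.0426 at 10 nM (adjusted p = 0.0036), a call lost with the replicate block (-0.33, adjusted p = 0.0891). ARVCF, a p120-catenin relative, had a change of -0.19 ± 0.0591 (adjusted p = 0.0359). Without 20 nM replicate 3, the log2 fold changes at 20 nM were 0.63 for CTNNB1, -0.40 for JUP, -0.26 for CTNNA1 and -0.23 for ARVCF.

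Of 13 junction partners 5 rose and 0 fell: TJP1 (ZO-1), NECTIN2, the receptor phosphatases PTPRF and PTPRM, and vinculin (VCL). TJP1 was at 60.6, 58.8 and 57.8 CPM in Ctrl., at 65.7, 67.5 and 62.1 CPM at 10 nM, and at 88.3, 81.2 and 74.7 CPM at 20 nM, in 3 groups that did not overlap, with a change of 0.51 ± 0.059 (edgeR adjusted p = 8.53e-05). The changes of the other 4 were between 0.19 and 0.44. PTPRF stood at 205, 226 and 300 CPM at 20 nM, with a log2 fold change of 0.24 there, or 0.28 without 20 nM replicate 3. Of 18 further members of the cadherin superfamily 3 rose and 1 fell. CELSR2, a cadherin of planar cell polarity, was at 89.4, 83.0 and 92.3 CPM in Ctrl. and at 144, 140 and 160 CPM at 20 nM, with a change of 0.68 ± 0.0959 (adjusted p = 0.000348), while 10 nM replicates 1 and 2 lay among the controls. Its relative CELSR3 fell (-0.22 ± 0.0519, adjusted p = 0.0102), and CLSTN2 and CDHR1 rose (0.70 ± 0.172 and 0.57 ± 0.171, adjusted p = 0.012 and 0.0341).

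Of 8 genes for shedding and gamma-secretase cleavage, 1 rose and 0 fell: ADAM17, a surface protease, with a change of 0.53 ± 0.0848 (edgeR adjusted p = 0.00081), while ADAM10, the main N-cadherin sheddase, had -0.10 ± 0.0453 (adjusted p = 0.165). In the list of the WAVE complex and kinases bound by protocadherins, 1 of 13 rose (WASF3, 0.52 ± 0.0503, adjusted p = 2.79e-05) and 1 fell (ABI2, -0.18 ± 0.0455, adjusted p = 0.0158). Of 13 genes for protocadherin promoter choice and silencing 1 rose and 3 fell, all encoding cohesin subunits: STAG2 (0.18 ± 0.0509, adjusted p = 0.0253), STAG1 (-0.25 ± 0.0568, adjusted p = 0.00876), SMC1A (-0.17 ± 0.0446, adjusted p = 0.0194) and SMC3 (-0.16 ± 0.0472, adjusted p = 0.0348). STAG2 was at 148, 137 and 98.3 CPM at 20 nM, where replicate 3 lay below the controls of 121 to 124 CPM. SMC3 was at 161 to 168 CPM in Ctrl. and 161, 144 and 107 CPM at 20 nM, with the lowest value again in replicate 3, and did not pass at 20 nM (adjusted p = 0.303). CTCF is known to mark many, but not all, promoters of PCDHA and PCDHG variable exons. Its level was 95.6 to 97.3 CPM in Ctrl. and 97.6 to 104 CPM at 20 nM (edgeR adjusted p = 0.37 in the dose trend). Of 5 transcription factors of the epithelial to mesenchymal transition, 1 rose, ZEB2 (0.22 ± 0.0542, adjusted p = 0.0129). Without the surrogate variable the 20 nM calls of ARVCF, CELSR3, STAG2, SMC1A, VCL and ZEB2 were lost (adjusted p between 0.108 and 0.769). The replicate block ended the same 6 calls (adjusted p between 0.0547 and 0.773), and in the dose trend those of ARVCF, CELSR3, STAG2, SMC3, VCL and ZEB2 (adjusted p between 0.0661 and 0.754). PTPRM, ABI2 and CDHR1 passed at 20 nM with the block (adjusted p of 0.0403, 0.0477 and 0.03).

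**Figure D5:**
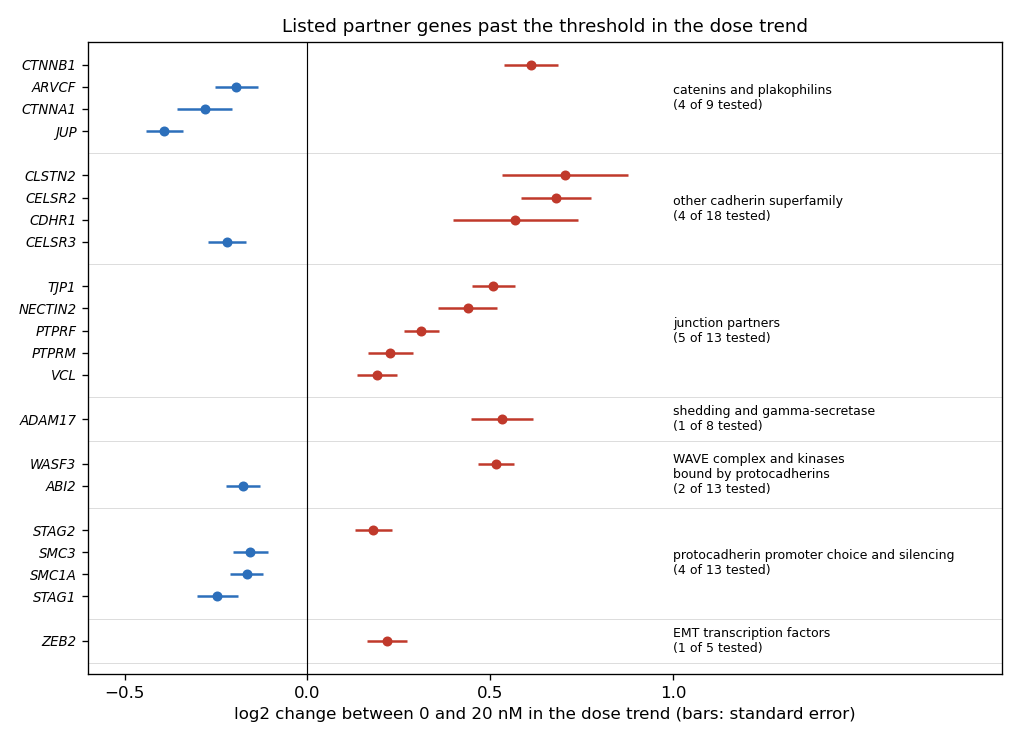
Log2 change between 0 and 20 nM in the dose trend, with standard errors, of the listed partner genes that passed the test (red higher, blue lower), grouped by list with the number tested. CTNNB1 at 0.61 stands opposite JUP at -0.39 and CTNNA1 at -0.28 among the catenins, and the 5 junction partners all lie above 0.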

How the data were processed

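Polyadenylated RNA of 9 libraries (3 per group, groups and numbers from the sample titles) was used. The authors mapped reads with salmon onto GRCh38.p13 with the Ensembl annotation, added transcripts up by gene symbol and applied filterByExpr; salmon's version and any use of strand are not given in the sources used here. The authors deposited these values as estimated counts per gene (88.8% not whole). The authors' tables of comparisons (fold changes and p-values) and of corrected log2 values were not used.

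Counts were rounded and fitted with edgeR 4.0.16 (R 4.3.3): TMM scaling, surrogate variables by sva 3.50.0 on log2 CPM (prior count 2, num.sv method be, seed 1, held between 1 and 3, giving 1 in both fits), the quasi-likelihood test over all 9 libraries, Benjamini-Hochberg over 14943 genes, threshold 0.05. Standard errors were obtained by dividing each log2 fold change by the square root of its F. Levels (CPM) are not corrected for the surrogate variable, so ratios of means can differ from fitted changes. DESeq2 1.42.0 was an alternative. The fit was tested on simulated counts.

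Members, lists and tests were chosen with earlier results of these data known. Named members are those past the threshold in any comparison, the 8 of highest mean CPM and those with a 7-mer or 8-mer; from the lists, at most 5 past the threshold in the dose trend. PCDH10, PCDH12, PCDH20, CDH1, CTCF, ADAM10 and other genes without a call were named after their values were seen. Positions and UTRs came from GENCODE 44 (GRCh38.p14); 76 members matched by identifier and 2 (CDH4, CDH12P2) by symbol. The labels do not say that a replicate number marks a shared culture. Deviations of same-numbered libraries from their group means correlated at 0.107 to 0.185 between Ctrl. and either mimic group. Between 10 nM and 20 nM they correlated at 0.0288 to 0.176. The library that matched best in another group had the same number in 17 of 18 comparisons. The numbers were therefore taken to pair libraries, from the data alone, although the main fit held no block for them. A fit in which a replicate block replaced the surrogate variable was an alternative, named where it changed a call. Replicate pairs within groups differed beyond sampling noise (chi-square per degree of freedom 4.69 to 46.5).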

Additional observations from a re-analysis of the deposited data

How the results depend on the processing

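Under the alternatives tried, 2101 of the fitted changes of named members kept their side of the threshold, of which 63, all without a call, changed sign. Another 78 fell out of it, 23 came into it, and 0 changed sign as calls. With 13 members called at 20 nM and 17 in the dose trend, leaving out each library gave 8 (without 20 nM replicate 2) to 17 and 12 to 19. At 10 nM the 1 call became 0 without a surrogate variable, and 2 with DESeq2, which added PCDHGB7; leaving out each library gave 1 to 2 (2 without Ctrl. replicate 3). Between 20 nM and 10 nM the 2 calls became 0 without a surrogate variable, 1 (PCDHGB7, lower) with only the 6 libraries compared, and 0 to 3 when leaving out each library, with 0 without 10 nM replicate 2, 10 nM replicate 3, 20 nM replicate 1 or 20 nM replicate 2. With the PCDHA, PCDHB and PCDHG isoforms summed to 1 row each, 1 row was called at 10 nM, the PCDHA sum. In that fit 5 rows were called at 20 nM, 5 in the dose trend and 1 between 20 nM and 10 nM, fewer by construction since fewer rows were tested. The PCDHA sum (higher) and the PCDHB sum (lower) were among those called at 20 nM and in the dose trend, and the PCDHG sum was not. When a replicate block replaced the surrogate variable, calls were 0 at 10 nM, 14 at 20 nM, 17 in the dose trend and 1 between 20 nM and 10 nM. The block changed no call of a member other than those given with the results. With 2 surrogate variables, chosen after seeing the data, 12 members were called at 20 nM and 17 in the dose trend. The log2 ratio of the PCDHB sums was -0.22 with library totals alone, against -0.19. Leaving out each library in turn, the ratio ran from 0.34 to 0.39 for PCDHA, from -0.21 to -0.18 for PCDHB and from 0.02 to 0.14 for PCDHG. Over all genes, 97 calls at 10 nM became 5 without a surrogate variable, 3 with the block, 204 with DESeq2 and 34 to 160 when leaving out each library. The 2074 calls at 20 nM, 2624 in the dose trend and 417 between 20 nM and 10 nM became 954, 1236 and 67 without a surrogate variable, the 417 became 124 with the block, and leaving out each library gave 1074 to 2656, 1369 to 3318 and 111 to 462. At levels below 2 CPM counting error limits what can be seen. Where a call changed, the cause was not tested.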
